A study of Mus musculus with 16 samples.

Results

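The genes described here encode proteins of the spliceosome and the RNA-binding proteins that act with it. They were chosen by the gene names on the array: names that begin with Lsm and a digit, Snrp, Sf3a or Sf3b, Sfrs and a digit, Srrm and a digit, Hnrp or Prpf, and the gene Ppih. The rule took 169 of the 41174 probes that are not controls, for 85 of 27962 gene names. By role these were 12 probes for the 8 proteins of the Lsm rings, 5 for 4 other Lsm proteins, 13 for 8 Sm proteins, 24 for 13 proteins of the U1 and U2 particles, 29 for 14 Prpf proteins and Ppih, 41 for 18 SR and Srrm proteins and 45 for 20 hnRNP proteins. The array uses older names: Sfrs genes are now mostly called Srsf and Hnrp genes Hnrnp, while Sfrs10 is now Tra2b, Sfrs12 is Srek1, Sfrs14 is Sugp2 and Sfrs16 is Clasrp.

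Whole lumbar spinal cord was compared between SOD1G93A mice, which carry many copies of a mutant human SOD1 transgene beside their own Sod1, and non-transgenic wild-type mice, all males of a B6SJL background. Both genotypes were studied at 40 and 80 days, ages before symptoms, with 4 arrays in each of the 4 groups, labelled as biological replicates. Each of the 16 arrays held Cy3-labelled cord RNA and a Cy5-labelled reference common to all arrays, RNA of neonatal heart, liver and kidney pooled from mice of both genotypes. A level below is the log2 ratio of cord to reference, and a change is SOD1G93A minus wild-type on that log2 scale. Whole cord holds many cell types, so fewer cells of a type and less RNA per cell cannot be told apart.

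On the arrays 46.1% to 55.3% of probes and 145 to 155 of the 169 member probes were well above background in Cy3, where 0 spots were saturated. Wild-type 40 days replicate 4 had the lowest of both and the most outlier spots (301). It also stood apart in some probes named below. Markers of neurons, astrocytes and oligodendrocytes fitted the labelled tissue. All 9 neuronal, 6 astrocyte and 6 oligodendrocyte marker genes were well above background on every array, with median levels of 4.33, 2.45 and 3.70, while heart markers had a median of -4.40 and liver markers of -2.98. All 4 heart and 2 of 5 liver marker genes were also well above background on every array. Their negative levels are set against a reference of these organs and do not show them absent from the cord. Of 6 motor neuron markers, 4 were well above background on every array. The mouse Sod1 probes A_52_P3581 and A_51_P367381 changed by 0.11 and -0.01 at 40 days and by -0.04 and -0.17 at 80 days, without passing the test. Slide 1 held replicate 1 of each group and so on, and each group kept the same place on every slide, so that an effect of the place cannot be told apart from one of the group.

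The spliceosome removes introns from pre-mRNA. Its small nuclear ribonucleoproteins (snRNPs) are each built around a small RNA: U1 marks the 5' splice site, U2 the branch point, and the joined U4, U6 and U5 particles enter together as the tri-snRNP. The RNAs of U1, U2, U4 and U5 sit in a ring of Sm proteins, and U6 in a ring of Lsm2 to Lsm8. A related cytoplasmic ring, in which Lsm1 takes the place of Lsm8, binds the ends of mRNAs that are about to lose their cap. SR proteins mostly favour, and hnRNP proteins often oppose, the use of nearby splice sites. RNA processing is a long-standing theme in amyotrophic lateral sclerosis, in which several inherited forms affect RNA-binding proteins. The spinal motor neuron is also the cell lost in spinal muscular atrophy, which arises from loss of SMN, a protein of Sm ring assembly.

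For 3 genes, Lsm6, Ppih and Snrpn, the probe sequences are given to show which part of each transcript was measured. Lsm6, a member of both Lsm rings, has 4 probes, all assigned to the same transcript on the minus strand of chromosome 8 (NCBI35, mm7). The probe farthest upstream, A_52_P593268, spans an intron (chr8:77348617-77350377) and ends just past the end of the coding sequence, its stop codon in capitals:
Lsm6 A_52_P593268: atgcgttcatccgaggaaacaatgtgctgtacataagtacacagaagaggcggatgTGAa
The other 3 follow downstream, at chr8:77348551-77348610, chr8:77347494-77347553 and chr8:77347087-77347146, at distances of 6, 997 and 347 bases. Their last 30 bases were as follows, with the hexamer AATAAA, a common form of the polyadenylation signal, in capitals:
Lsm6 A_52_P655743: tgaagtggtttgggttctcttaccatctta
Lsm6 A_51_P152802: tggtgtgcacactgaaAATAAAacacttta
Lsm6 A_52_P422755: caagatggactttgggaaatgctaccattt
Ppih, a cyclophilin that sits in the tri-snRNP, has a pair of probes on the minus strand of chromosome 4, A_51_P300759 (chr4:118676489-118676548) downstream of A_52_P431950 (chr4:118687772-118687831). Their last 30 bases, with AATAAA in capitals, were:
Ppih A_51_P300759: gtatcacaaatgagaaccaatcatcctgtt
Ppih A_52_P431950: ggctctgatcctgatgcccactgAATAAAa
The hexamer, searched on the strand of the probe alone, stood in the last 30 bases of 1275 of all 41174 probes (3.1%), so a match in 1 probe is a description and not a site of cleavage. Snrpn, the Sm protein of neurons, has probes at chr7:55735109-55735168 and chr7:55735092-55735151 that overlap by 43 bases. They differ in 2 of these, in capitals, so that both cannot match the same transcript exactly:
Snrpn A_51_P168862: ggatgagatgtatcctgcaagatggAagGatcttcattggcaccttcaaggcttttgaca
Snrpn A_52_P354390: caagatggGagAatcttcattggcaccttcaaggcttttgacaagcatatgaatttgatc

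Few of these genes differed between genotypes at 40 days, and by little. In what follows p is that of limma's moderated test, unadjusted as in the methods of the study and called where under 0.05, and exact p is that of an exact permutation test of the arrays of the groups. At this age 8 of 151 member probes tested were called (5.3%), against 4.47% of all 21336 probes. Of those called, 1 was higher in SOD1G93A mice (0.662% of members tested, against 2.44% of all probes) and 7 were lower (4.64%, against 2.03%). The count without wild-type 40 days replicate 4 was 13, where 8.87% of all probes were called. It was 5 without wild-type replicate 2, SOD1G93A replicate 2 or SOD1G93A replicate 4, and 4 without SOD1G93A replicate 3. With bright local backgrounds kept as scanned it was 3, when 1.16% of all probes were called, and with scale normalization 22, when 13.2% were. Without loess it was 11, all lower. Feature Extraction's own processed signals also gave 8 probes, but all of them higher, in a setting that called 15.4% of all probes and moved their median change to 0.12.

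At 80 days 16 of 152 member probes (10.5%) were called, against 6.86% of all 21601 probes. Of these 5 were higher (3.29%, against 3.74% of all probes) and 11 lower (7.24%, against 3.12%). Without loess the direction turned, with 6 higher and 3 lower, and with the processed signals it was 5 and 7. The count was 10 without SOD1G93A 80 days replicate 2 and 9 without replicate 3. The median change over the members was -0.01 at 40 days and -0.02 at 80 days, beside 0.00 for all probes at both ages, and 84 of 151 and 83 of 152 lay below 0. No member probe passed a Benjamini-Hochberg adjusted p of 0.05 at either age, and the smallest adjusted p of a member was 0.998 at 40 days and 0.654 at 80 days. With each gene counted by its brightest probe, 2 of 82 genes had a p under 0.05 at 40 days and 9 at 80 days. Of 47 genes with several probes, 7 had a probe with p under 0.05 at 40 days and 10 at 80 days, and Lsm6 was the single gene with more than 1 at either age.

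**Figure D1:**
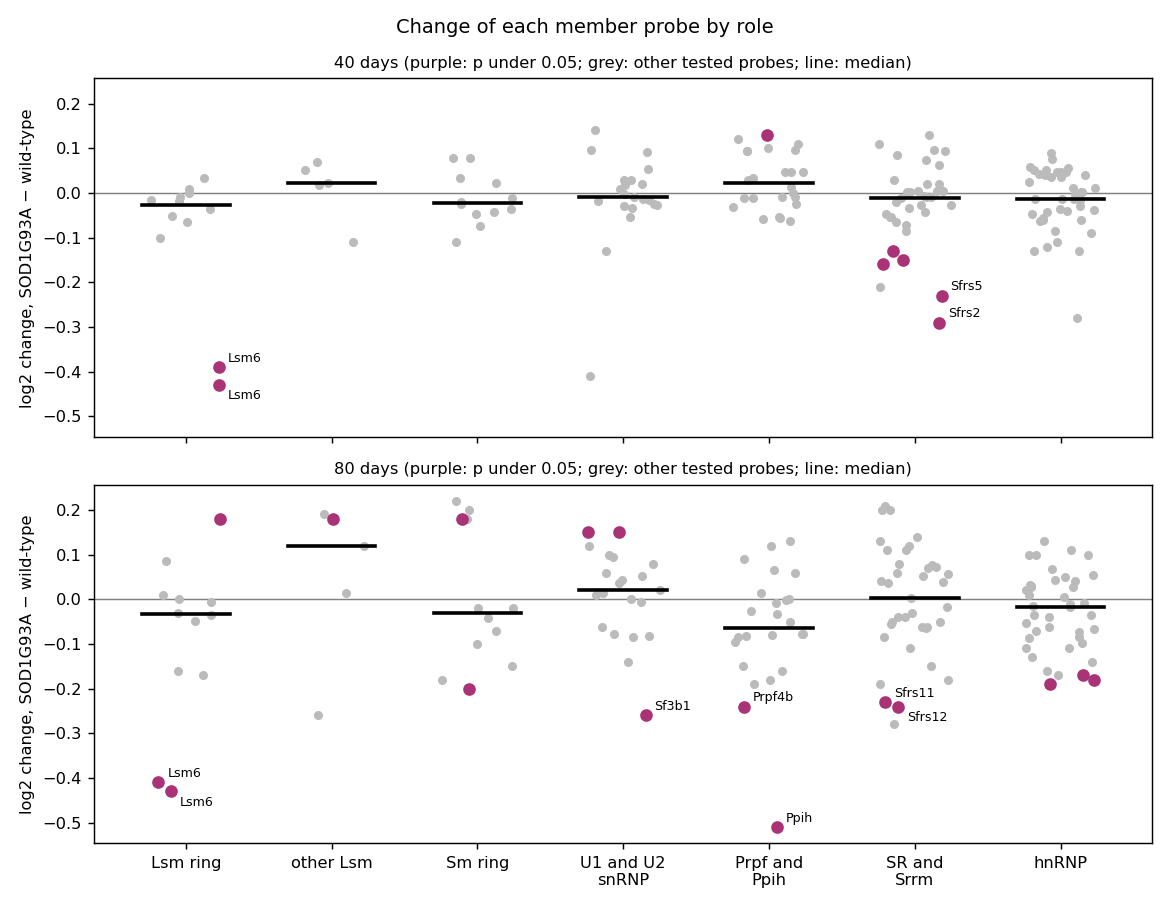
Change of each tested member probe, SOD1G93A minus wild-type in log2 units, by role of the protein at 40 and 80 days, with probes of p under 0.05 marked and the median of each role as a line. The role medians lie between -0.06 and 0.12, and the lowest points are those of Lsm6 at 40 days (-0.43) and of Ppih at 80 days (-0.51).

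Lsm6 was lower in SOD1G93A cord at both ages by its upstream probes. At 40 days the levels of A_52_P593268 were 1.22, 1.32, 1.57 and 1.50 in wild-type and 1.10, 1.11, 0.82 and 0.84 in SOD1G93A mice. All 4 SOD1G93A arrays lay below all 4 wild-type arrays. The change was -0.43, or a ratio of 0.74, with a standard error of 0.10 (p = 0.00125, limma's Benjamini-Hochberg adjusted p = 0.998, exact p = 0.0286, the smallest that 4 arrays against 4 allow). At 80 days the levels were 1.39, 1.60, 1.19 and 1.62 in wild-type and 0.80, 1.19, 0.99 and 1.08 in SOD1G93A mice. The groups met at a single pair of arrays, and the change was again -0.43, with a standard error of 0.11 (p = 0.00317, exact p = 0.0571). The next probe, A_52_P655743, read 1.26, 1.24, 1.47 and 1.57 in wild-type and 1.15, 1.18, 0.78 and 0.88 in SOD1G93A mice at 40 days, groups that did not overlap (change -0.39, p = 0.00492, exact p = 0.0286). At 80 days it read 1.30, 1.63, 1.22 and 1.75 in wild-type and 0.84, 1.18, 1.04 and 1.18 in SOD1G93A mice, again apart (change -0.41, p = 0.00812, exact p = 0.0286). The difference of the change between the ages, -0.0006 and -0.03, did not pass the test for either probe (p = 0.997 and 0.889, exact p = 0.999 and 0.926). No left-out array ended a call for these probes at either age. At 40 days the processed signals did, at changes of -0.31 and -0.33.

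The downstream Lsm6 probes gave another reading. A_51_P152802 changed by -0.02 at 40 days (p = 0.837, exact p = 0.914) and by 0.09 at 80 days (p = 0.374, exact p = 0.429). For A_52_P422755 the changes were -0.10 (p = 0.374, exact p = 0.571) and -0.04 (p = 0.706, exact p = 0.743). On each array the mean of the upstream pair minus that of the downstream pair was taken, a measure chosen after these values were seen. It was 0.42, 0.54, 0.50 and 0.35 in wild-type and 0.20, 0.18, 0.05 and -0.02 in SOD1G93A mice at 40 days. At 80 days it was 0.34, 0.53, 0.30 and 0.60 in wild-type and -0.07, 0.15, -0.27 and 0.17 in SOD1G93A mice. At both ages all SOD1G93A arrays lay below all wild-type arrays. The means were 0.45 ± 0.086 (SD, n = 4) and 0.10 ± 0.11 (SD, n = 4) at 40 days, a difference of -0.35 (exact p = 0.0286). At 80 days they were 0.44 ± 0.15 (SD, n = 4) and -0.01 ± 0.21 (SD, n = 4), a difference of -0.45 (exact p = 0.0286). Because the measure was chosen on these arrays, its p-values are no independent support.

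**Figure D2:**
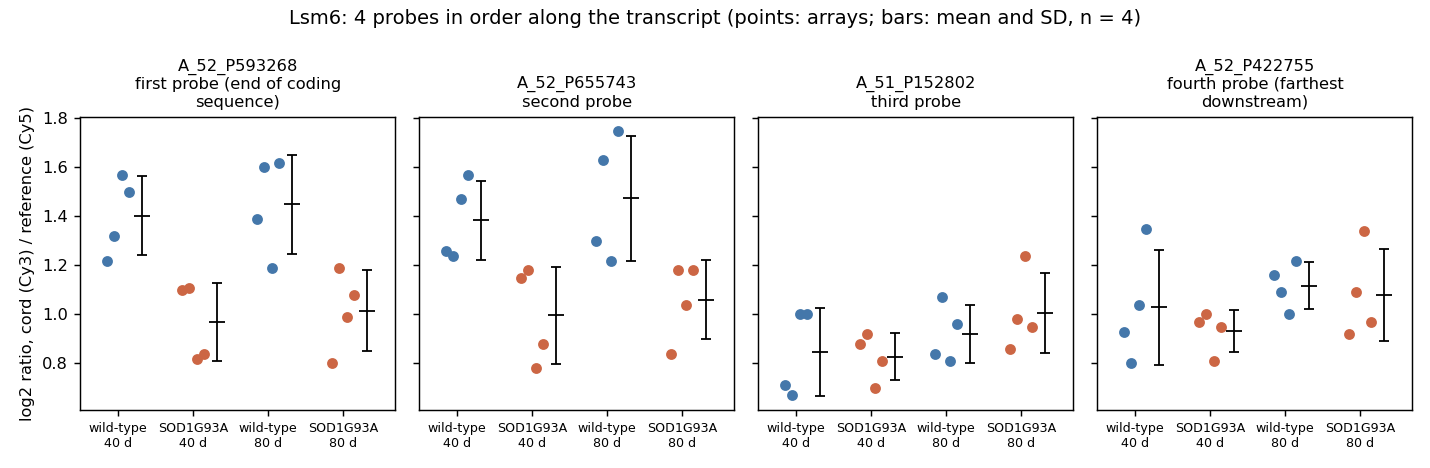
Level of the 4 Lsm6 probes on each array (log2 ratio of cord to reference, points are arrays and bars group means and SD), ordered from upstream to downstream. The SOD1G93A arrays sit below the wild-type arrays for the upstream pair at both ages, but for 1 pair of arrays of A_52_P593268 at 80 days, and are mixed with them for the downstream pair.

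Over the whole array 89 of 20986 probes (0.424%) were called at 40 and again at 80 days, 25 of them in the same direction. Among 150 members these were the 2 upstream Lsm6 probes. Chromosome 8, on which Lsm6 lies, was examined after this, to see whether neighbours moved alike. It held 14 of the 25 probes. With Lsm6 left out these were 12 of its 1071 probes tested at both ages (1.12%), each of another gene, against 11 of 19911 probes placed elsewhere or nowhere (0.0552%). Of the 12, 8 were lower and 4 higher in SOD1G93A mice. They lay 5.48 to 30.9 Mb from Lsm6, and 8 of them on the stretch chr8:68959603-70947517, which also holds the member Lsm4.

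Of these 12 the largest changes were those of the transcript 9430098E02Rik, at -0.92 at 40 days and -1.1 at 80 days, and of 2510049I19Rik, at -0.66 and -0.79. Plvap, a protein of the openings in endothelial cells, stood at -0.25 and -0.28, and Mast3, a kinase, was higher at 0.29 and 0.31. Over the whole chromosome without Lsm6 7.36% of 1087 probes had a p under 0.05 at 40 days, against 4.47% of all probes, and 9.51% of 1094 at 80 days, against 6.86%. Within 5 Mb of Lsm6 the counts were 6 of 55 at 40 days (10.9%), 5 of them higher, and 4 of 54 at 80 days (7.41%), 3 of them lower, and none of these was called at both ages. Whether the changes of Lsm6 and of these genes are related was not tested.

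The other proteins of the Lsm rings moved less. Of 12 probes for the rings, 2 had a p under 0.05 at 40 days, both Lsm6, and 3 at 80 days, with medians of -0.03 at both ages. The third was Lsm4 (A_51_P116487, chr8:69133776-69133834), which was higher. Its levels at 80 days were -0.50, -0.42, -0.53 and -0.52 in wild-type and -0.26, -0.38, -0.36 and -0.24 in SOD1G93A mice, groups that did not overlap. The change was 0.18, with a standard error of 0.06 (p = 0.0127, exact p = 0.0286). The call was lost by the Cy3 channel on its own and with the study's normalized values. At 40 days the change was 0.03 (p = 0.585, exact p = 0.6). Lsm5, of both rings, changed by -0.05 at 40 days (p = 0.504, exact p = 0.486) and by -0.17 at 80 days (p = 0.0921, exact p = 0.171). Lsm1, particular to the cytoplasmic ring, stood at -0.01 and 0.01 (p = 0.882 at both ages, exact p = 0.743 and 0.857).

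Lsm14a, an Lsm protein outside the rings that belongs to cytoplasmic RNA granules with decapping factors, was higher at 80 days (A_51_P320860). Its levels were -0.92, -0.70, -0.65 and -0.72 in wild-type and -0.65, -0.55, -0.49 and -0.57 in SOD1G93A mice, where the groups met at -0.65 as rounded and did not overlap. The change was 0.18 (p = 0.0312, exact p = 0.0286). At 40 days it was -0.11 (p = 0.129, exact p = 0.0857), and the difference between the ages, 0.29, had p = 0.00809 from limma (exact p = 0.00204). The 80 days call ended without any 1 of 4 arrays, at changes of 0.12 without wild-type replicate 1 and of 0.18, 0.16 and 0.18 without SOD1G93A replicates 2, 3 and 4. None ended the call of the difference. The 80 days call was also lost by the Cy3 channel on its own and with the study's normalized values.

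Among the Sm proteins 0 of 12 probes had a p under 0.05 from limma at 40 days, against 4.47% of all probes. At 80 days 2 did (16.7%, against 6.86%). Snrpg, the G protein of the ring (A_51_P200134, chr6:86453856-86453915), read -1.12, -1.17, -1.06 and -1.20 in wild-type and -1.34, -1.44, -1.37 and -1.21 in SOD1G93A mice at 80 days. The SOD1G93A arrays were all lower, the closest pair by 0.01 as rounded, and the change was -0.20 (p = 0.0141, exact p = 0.0286). It did not pass 0.05 with the processed signals, without loess or with scale normalization. Snrpn at 80 days read 3.96, 3.82, 3.72 and 3.81 in wild-type and 4.07, 4.02, 4.08 and 3.86 in SOD1G93A mice by A_51_P168862, a change of 0.18 with overlap of 1 array on each side (p = 0.0362, exact p = 0.0571). Its overlapping probe A_52_P354390 changed by 0.22 (p = 0.0848, exact p = 0.143). Leaving out any array but wild-type replicate 1 and SOD1G93A replicate 4 ended the Snrpn call, with changes of 0.14 to 0.23 over all 8, and with scale normalization the change was -0.03. Snrpd2 separated the genotypes at 40 days, at -0.72, -0.73, -0.66 and -0.67 in wild-type and -0.86, -0.78, -0.80 and -0.77 in SOD1G93A mice, without passing limma's threshold (change -0.11, p = 0.0588, exact p = 0.0286).

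For the U1 and U2 particles 0 of 21 probes had a p under 0.05 from limma at 40 days, against 4.47% of all probes. At 80 days 3 did (14.3%, against 6.86%). Snrpa, a protein that binds a stem-loop of the U1 RNA, read 0.29, 0.36, 0.25 and 0.30 in wild-type and 0.49, 0.45, 0.43 and 0.45 in SOD1G93A mice at 80 days by its most upstream probe (A_52_P518014, chr7:24110549-24110608). The groups did not overlap, and the change was 0.15 (p = 0.0172, exact p = 0.0286), a call lost without loess. Its other 3 probes changed by 0.00, 0.06 and 0.10. Snrpa1, a protein of the U2 particle, was higher by 0.15 (p = 0.0426, or 0.0768 with the slide as a block, exact p = 0.0571), and Sf3b1, the largest protein of the complex that holds U2 to the branch point, was lower by -0.26 in its probe A_52_P625808 (p = 0.0357, exact p = 0.0857) and at -0.06 in the other (p = 0.398). The Snrpa1 call ended with the slide as a block and without any array but wild-type replicate 4 and SOD1G93A replicate 1, with changes of 0.12 to 0.18, and the Sf3b1 call without any but wild-type replicate 2 and SOD1G93A replicate 1, with changes of -0.35 to -0.18. A further Snrpa probe, A_52_P296281, separated the groups at 40 days, at 0.25, 0.42, 0.17 and 1.18 in wild-type and 0.06, 0.12, 0.09 and 0.13 in SOD1G93A mice. Its change of -0.41 (p = 0.0549, exact p = 0.0286, and limma's p = 0.0347 with the slide as a block) was -0.18 without wild-type replicate 4, the array at 1.18.

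Ppih had the lowest p of any member between genotypes. Its probe A_51_P300759 read -0.50, -0.22, -0.45 and -0.41 in wild-type and -0.49, -0.15, -0.46 and -0.09 in SOD1G93A mice at 40 days, which overlap. At 80 days it read -0.21, 0.11, -0.04 and -0.17 in wild-type and -0.42, -0.53, -0.72 and -0.70 in SOD1G93A mice, all of them below. The change was 0.09 at 40 days (p = 0.383, exact p = 0.429) and -0.51 at 80 days, a ratio of 0.70, with a standard error of 0.09 (p = 0.000235, limma's adjusted p = 0.654, exact p = 0.0286). It kept a p under 0.05 from limma at 80 days in all 23 alternatives run, with changes of -0.57 to -0.45 when 1 array was left out. The difference between the ages was -0.61 (p = 0.000702, exact p = 0.00980). In the upstream probe A_52_P431950 the change was 0.11 at 40 days (p = 0.193, exact p = 0.286) and -0.18 at 80 days (p = 0.0761, exact p = 0.114), and the difference between the ages was -0.29 (p = 0.0325, exact p = 0.0371). Both Ppih probes passed the test of the difference between the ages, and 1 of them the test at 80 days.

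Of the 24 tested probes for Ppih and the Prpf proteins, 1 had a p under 0.05 at 40 days (4.17%, against 4.47% of all probes). At 80 days 2 did (8.33%, against 6.86%), when 17 lay below 0 (median -0.06). Prpf4b, the kinase that phosphorylates tri-snRNP proteins, was the other at 80 days. Its upstream probe A_52_P643359 (chr13:34290902-34298497) read -0.09, -0.19, -0.09 and -0.24 in wild-type and -0.38, -0.34, -0.40 and -0.46 in SOD1G93A mice. All SOD1G93A arrays were lower, and the change was -0.24, with a standard error of 0.06 (p = 0.00259, exact p = 0.0286). At 40 days it read -0.44, -0.35, -0.20 and -0.37 against -0.31, -0.24, -0.27 and -0.36, and the difference between the ages was -0.29 (p = 0.00306, exact p = 0.00898). Its other tested probes, near the downstream end of the gene, changed by -0.08 and -0.03 at 80 days (p = 0.285 and 0.654, exact p = 0.257 and 0.457). Without loess the Prpf4b call at 80 days and that of the difference between the ages were lost. Prpf38b, a protein that resembles a tri-snRNP factor, was higher by 0.13 at 40 days in A_52_P455691 (p = 0.0371, exact p = 0.0286), with 5 of 8 arrays and the slide as a block (p = 0.0602) ending the call, and its other probe stood at 0.09 (p = 0.109).

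The SR proteins held most of the calls at 40 days, 5 of 36 probes (13.9%, against 4.47% of all probes), all lower (against 2.03%), from 5 genes. Sfrs5 (A_52_P50090, chr12:78909505-78910154) read -1.07, -1.08, -1.11 and -1.10 in wild-type and -1.22, -1.51, -1.30 and -1.24 in SOD1G93A mice. The wild-type arrays lay within 0.04 of each other, above all SOD1G93A arrays, and the change was -0.23, with a standard error of 0.07 (p = 0.00748, exact p = 0.0286). The second Sfrs5 probe changed by -0.21 (p = 0.0626, exact p = 0.114). The call on the first held without each array and was lost with the processed signals, by the Cy3 channel on its own and with the study's normalized values. Sfrs7 changed by -0.15 in A_52_P649685 (p = 0.0225, exact p = 0.0286) and by -0.04 and -0.05 in its others. The call was lost without wild-type replicate 2 (-0.12) and without SOD1G93A replicate 3 (-0.13). It was also lost with bright local backgrounds kept, with the processed signals, by the Cy3 channel on its own and with the study's normalized values.

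The calls of the last 3 SR genes at 40 days held less well when single arrays were left out. Sfrs6 (-0.16, p = 0.0419, exact p = 0.0857) lost its call without any of 5 arrays and Sfrs11 (A_52_P685971, -0.13, p = 0.0427, exact p = 0.0857) without any of 6. With the slide as a block their p from limma was 0.0684 and 0.0814. The Sfrs2 probe A_52_P482355 read -0.81, -0.63, -0.69 and -0.15 in wild-type and -0.77, -0.93, -0.84 and -0.88 in SOD1G93A mice. Wild-type replicate 4 stood far above the rest, and the change of -0.29 (p = 0.0444, exact p = 0.0571, and limma's p = 0.050 with the slide as a block) was -0.14 without it. The other Sfrs2 probes changed by -0.03, 0.00 and -0.07. The hnRNP probe Hnrpa1 A_52_P637440 showed the same array apart, at -0.73, -0.56, -0.86 and -0.02 in wild-type and -0.83, -0.79, -0.85 and -0.84 in SOD1G93A mice (change -0.28, p = 0.0901, exact p = 0.143).

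At 80 days 2 of 37 SR probes had a p under 0.05 (5.41%, against 6.86% of all probes). Sfrs12, whose product binds other SR proteins, was the clearer, by A_52_P684857, the most upstream of its 3 tested probes (chr13:100896079-100896138). At 40 days it read 0.13, 0.18, 0.22 and 0.24 in wild-type and 0.35, 0.31, 0.28 and 0.25 in SOD1G93A mice, and at 80 days 0.30, 0.19, 0.42 and 0.21 against 0.12, -0.05, 0.01 and 0.09. SOD1G93A arrays were all above wild-type arrays at 40 days and all below them at 80 days. The change was 0.11 (p = 0.0583, exact p = 0.0286) and -0.24 (p = 0.00730, exact p = 0.0286). The difference of -0.35 between the ages had p = 0.000707 (limma's adjusted p = 0.543) and the smallest exact p that 4900 relabellings allow, 0.000408. The Sfrs12 call at 80 days and that of the difference between the ages were lost without loess. The other tested probes of Sfrs12, toward the downstream end of the gene, stayed between -0.06 and 0.06 at both ages. Sfrs11, an SR-related splicing factor, was lower by -0.23 in A_51_P149818 (p = 0.0388, exact p = 0.143), where the probe called at 40 days stood at 0.12, and the call ended without any array but SOD1G93A replicates 1 and 4, with changes of -0.32 to -0.17.

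Of 41 hnRNP probes, with medians of -0.01 and -0.02, 0 had a p under 0.05 from limma at 40 days, against 4.47% of all probes. At 80 days 3 did, all lower (7.32%, against 6.86% called and 3.12% called lower among all probes). Hnrpdl, a relative of the AU-rich element binder Hnrpd, read -0.42, -0.36, -0.19 and -0.30 in wild-type and -0.43, -0.55, -0.59 and -0.43 in SOD1G93A mice in A_52_P146848. The groups were apart by 0.01, and the change was -0.18 (p = 0.0265, exact p = 0.0286). Its other probes stood at -0.06 and 0.04, and the call ended without wild-type replicate 3 (-0.14) or 4 (-0.18) and without SOD1G93A replicate 2 (-0.17) or 3 (-0.15). The Hnrpdl call was also lost without loess, by the Cy3 channel on its own and with the study's normalized values. Hnrpr changed by -0.19 in A_52_P451268 (p = 0.0389, exact p = 0.114) and by 0.05 in its other probe, and Hnrph1, which binds runs of G, by -0.17 (p = 0.0462, or 0.0805 with the slide as a block, exact p = 0.0571). Each of these calls ended without any of 6 arrays. Hnrpd separated the groups without passing limma's threshold (A_51_P226373, 0.13, p = 0.0557, exact p = 0.0286).

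Genotypes stood apart on all 8 arrays of an age for 8 of 151 member probes at 40 days (5.3%, against 2.83% of all probes) and for 10 of 150 at 80 days (6.67%, against 4.31%). SOD1G93A mice were the higher in 2 at 40 days (1.32%, against 1.53%) and 4 at 80 days (2.67%, against 2.03%), and the lower in 6 at each age (3.97%, against 1.30%, and 4.00%, against 2.28%).

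For 14 of 153 member probes (9.15%) the genotype change was not the same at the 2 ages by that test, against 6.68% of all 21951 probes. It was more positive at 80 days for 5 (3.27%, against 3.11%) and more negative for 9 (5.88%, against 3.57%). Without loess this turned to 15 and 1, with scale normalization to 13 and 7, and with the processed signals it was 3 and 14. None passed after adjustment by limma with Benjamini-Hochberg (smallest adjusted p of a member 0.543). Ppih gave 2 of the 4 called among Ppih and the Prpf proteins, all 4 more negative at 80 days. In A_52_P50090, Sfrs5 moved the other way, from -0.23 at 40 days to 0.20 at 80 days (p = 0.0956, exact p = 0.171). At 80 days it read -1.31, -1.15, -0.98 and -0.90 in wild-type and -0.96, -0.89, -1.04 and -0.63 in SOD1G93A mice, with overlap. The difference between the ages was 0.43 (p = 0.00564, exact p = 0.00490), a call lost by the Cy3 channel on its own and in the study's normalized values. The second Sfrs5 probe, A_51_P432892, did not pass the test of the difference. At 80 days it read -0.98, -1.09, -0.77 and -0.82 in wild-type and -0.89, -1.07, -1.11 and -0.75 in SOD1G93A mice, with overlap. Sfrs11 (A_51_P149818) differed by -0.36 (p = 0.0131, exact p = 0.0212), Sfrs1 by -0.28 (A_51_P485899, p = 0.0296, exact p = 0.0331), Sf3b1 by -0.35 (p = 0.0470, exact p = 0.0710), Hnrpr by -0.24 (p = 0.0292, exact p = 0.0306) and Prpf38b by -0.21 (p = 0.0262, exact p = 0.0163). For the probes Snrpa A_52_P296281, Sfrs2 A_52_P482355 and Hnrpa1 A_52_P637440, at 0.47, 0.36 and 0.39, the difference includes the array of 40 days that stood apart.

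**Figure D3:**
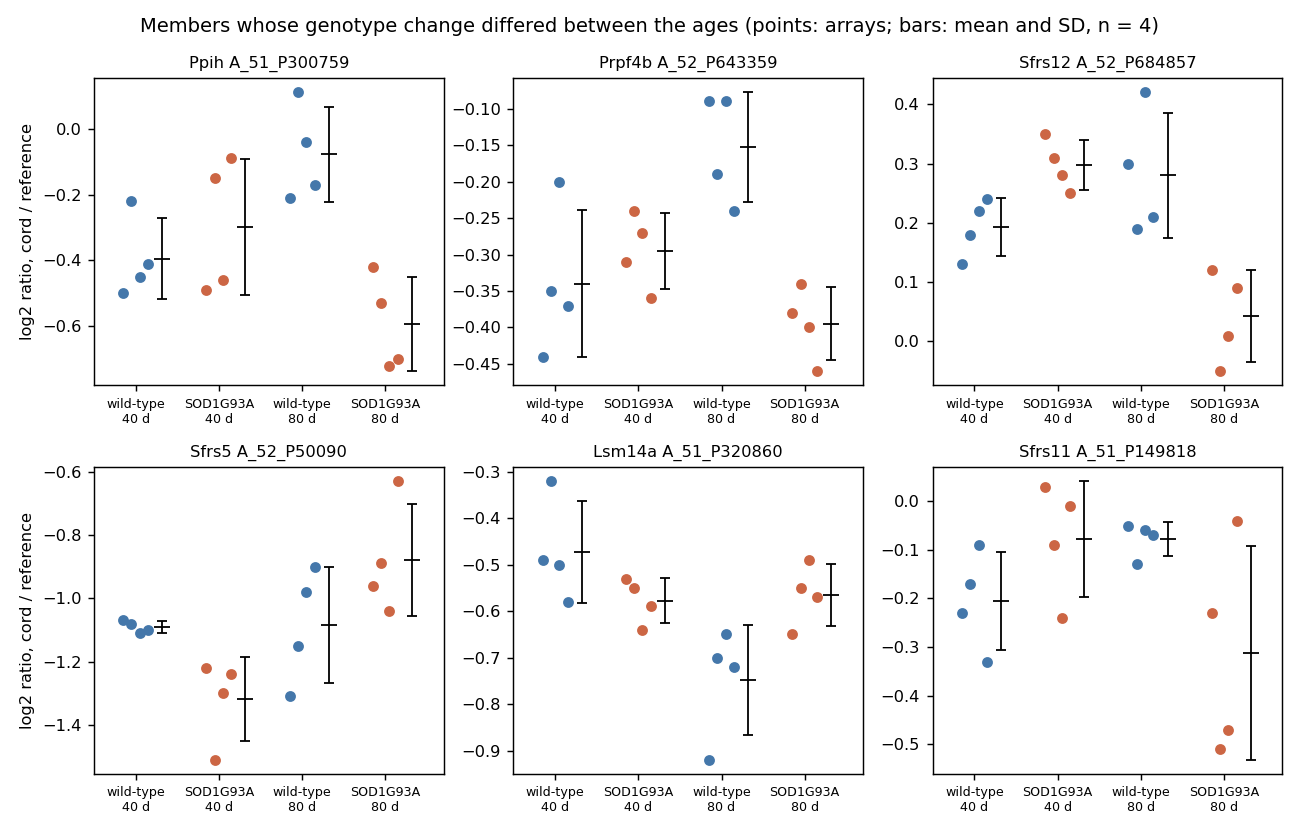
Level (log2 ratio of cord to reference) of the member probes of smallest p for the difference in genotype change between 40 and 80 days. Points are arrays, bars group means and SD. Ppih, Prpf4b and Sfrs12 separate the genotypes at 80 days with SOD1G93A lower, Sfrs5 at 40 days with SOD1G93A lower, and Lsm14a at 80 days with SOD1G93A higher.

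Between 40 and 80 days 20 of 153 member probes were called in wild-type mice (13.1%), against 15.1% of all probes, 10 in each direction (6.54%, against 6.77% of all probes higher and 8.29% lower). The split was 1 higher and 18 lower without loess, 10 and 2 with the processed signals, 9 and 3 by the Cy3 channel and 3 and 32 in the study's normalized values. In SOD1G93A mice it was 34 of 153 (22.2%), against 16.9% of all probes, 20 higher at 80 days (13.1%, against 8.64%) and 14 lower (9.15%, against 8.28%). Here it was 22 and 3 without loess, 5 and 22 with the processed signals and 9 and 40 in the study's normalized values, so the direction of the age changes as a whole depended on the scaling. Cell type markers moved with age too: of 13 oligodendrocyte probes 7 were called in SOD1G93A mice, 6 of them lower, and 3 in wild-type mice, all lower. Of 12 astrocyte probes 4 were called in each genotype, and of 11 microglial probes 2 and 1, all higher. Their part in the age changes was not tested. The counts of wild-type mice were 10 without wild-type 80 days replicate 1 or 3 and 13 without SOD1G93A 40 days replicate 3, and that of SOD1G93A mice was 20 without SOD1G93A 80 days replicate 3. Whether the counts differ between genotypes was not tested. Age and the position of the groups on the slides cannot be told apart.

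After Benjamini-Hochberg adjustment of limma's p, 2 members passed in SOD1G93A mice (1.31%, against 1.12% of all probes) and 0 in wild-type mice, where 1.58% of all probes did. Sfrs5 was higher at 80 days by 0.44 (A_52_P50090, p = 0.000306, limma's adjusted p = 0.0363, exact p = 0.0286), and its second probe by 0.27 (p = 0.0193). Sfrs12 was lower by -0.26 (A_52_P684857, p = 0.000461, limma's adjusted p = 0.0455, exact p = 0.0286). SR proteins gave 12 of the 34 calls in SOD1G93A mice, 32.4% of 37 SR probes (against 16.9% of all probes), 8 of them higher. They included 2 of the 4 probes of Sfrs8 (0.32 and 0.22, the others at 0.20 and 0.10), a regulator related to Drosophila suppressor of white-apricot, and 2 of the 3 of Sfrs14 (0.30 and 0.26, the third at 0.27). Lsm4 (0.18), Snrpb (0.34), Snrpa1 (0.20) and Prpf6 (0.33), the last a bridge within the tri-snRNP, were higher as well, and Lsm8 (-0.21), Lsm1 (-0.12) and Ppih (-0.29) lower. The Lsm4, Snrpa1 and Lsm8 calls were lost by the Cy3 channel on its own and in the study's normalized values. The latter also ended those of Snrpb and of Sfrs8 at 0.32. With the processed signals the Lsm4, Snrpa1 and Prpf6 calls were lost, and without loess that of Lsm8. In wild-type mice the lowest p was that of Lsm14a, lower at 80 days by -0.28 (p = 0.000904, limma's adjusted p = 0.0528, exact p = 0.0286). Ppih was higher there by 0.31 (p = 0.00744, exact p = 0.0286) and Prpf4b by 0.19 (p = 0.00586, exact p = 0.0571), against -0.29 (p = 0.0117, exact p = 0.114) and -0.10 (p = 0.0997) in SOD1G93A mice. The wild-type Prpf4b call was lost without loess and in the study's normalized values. Lsm1 was lower in wild-type mice by -0.14 (p = 0.0243, exact p = 0.0857), a call lost in 9 of 30 alternatives, 4 of them left-out arrays. Sfrs9 (-0.19) and Sfrs10 (A_51_P264322, -0.17) were also lower in wild-type mice, while Hnrpdl was higher in both its other probes (0.17 and 0.19). The Sfrs9 and Sfrs10 calls were lost with the processed signals, and both Hnrpdl calls without loess and with scale normalization. The Cy3 channel and the study's normalized values also ended the Sfrs10 call and that of Hnrpdl at 0.17. Probes of Sfrs10 and Hnrpr moved in opposite directions in wild-type mice, as those of Snrpd3 did in SOD1G93A mice (0.28 and -0.24).

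Against the reference of neonatal organs, most members had a negative level. No array had the dyes exchanged, so a level describes sample and dye together and has no test. Of 144 member probes well above background on all 16 arrays, 101 had a negative level (70.1%), with a median of -0.34, against 42.8% and a median of 0.15 for all 17727 such probes. The hnRNP probes were lowest, with a median of -0.72 and 82.1% below 0, then the SR probes, with -0.43 and 80.0%. U1 and U2 proteins, at 0.08, and Lsm rings, at 0.23, lay highest. Snrpn stood far above the others, at 4.23 ± 0.18 (SD, n = 16), followed by Sfrs14 at 1.54 ± 0.18, Lsm6 at 1.23 ± 0.28 and Sfrs16 at 0.88 ± 0.15. The lowest genes were Hnrpf at -1.67 ± 0.13, Hnrpa3 at -1.67 ± 0.12, Sfrs7 at -1.56 ± 0.11 and Hnrpab at -1.53 ± 0.13. The gaps between Snrpn and Sfrs14 and between Sfrs16 and the lowest genes exceeded these SDs, those between neighbours among the 4 lowest did not.

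**Figure D4:**
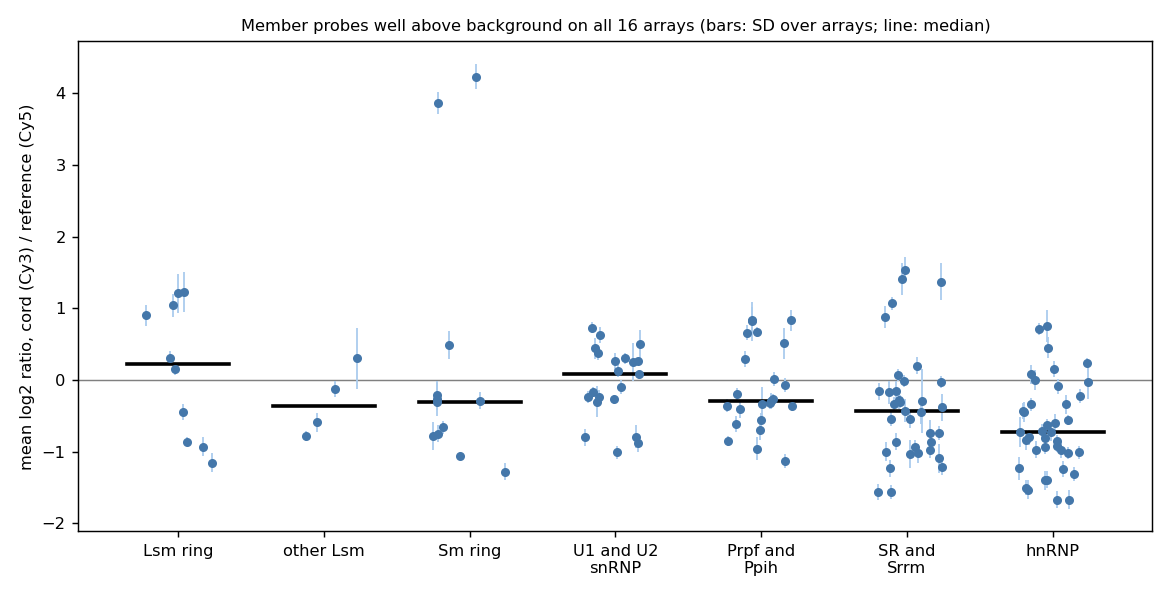
Mean level over 16 arrays (log2 ratio of cord to reference) of the member probes well above background on all arrays, by role of the protein. Snrpn, at 4.23, lies far above the other members, while the hnRNP probes have a median of -0.72.

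Probes of 1 gene often gave unlike levels. In 42 genes with several such probes the median range was 0.49, under 0.5 in 22 genes and over 1 in 4. Those were Sfrs7, from -1.56 to 1.07, Hnrpa3, from -1.67 to 0.71, Snrpb2, from -1.01 to 0.73, and Hnrpa1, from -1.39 to -0.09. Sm B and N, the hnRNP A proteins and several SR proteins have near-identical relatives or pseudogenes, and whether a probe also bound these was not tested. A gene's level here is that of its brightest probe.

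The other genes of the pathway were taken from lists by function. Of 86 tested probes for other core spliceosome proteins, 3 had a p under 0.05 at 40 days (3.49%) and 11 of 85 at 80 days (12.9%), 6 higher and 5 lower. Of all probes 4.47% did at 40 days and 6.86% at 80 days, which holds for each list that follows. Eftud2, the GTPase of U5, was higher at 80 days by 0.32 and U2af1, which reads the 3' splice site, by 0.26, while Ddx46, a helicase of the U2 step, was lower by -0.25. Dhx8, the helicase that releases spliced mRNA, was lower at 40 days by -0.46. For the minor spliceosome, which removes a rare class of introns, the counts were 0 of 15 by limma at 40 days and 1 of 15 at 80 days, Rnpc3 at -0.18.

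Of 24 probes for the SMN complex and snRNP assembly, 1 had a p under 0.05 at 40 days and 3 at 80 days. Wdr77, of the complex that methylates Sm proteins, was higher at 80 days by 0.19 in 2 of its 4 probes, with the others, not called, at 0.16 and -0.10. Ncoa6ip, now Tgs1, which adds methyl groups to the cap of snRNAs, stood at 0.30 at 40 days and -0.25 at 80 days. For decapping, the exosome and nonsense-mediated decay, where the cytoplasmic Lsm ring acts, 3 of 73 probes (4.11%), all higher, and 10 of 71 (14.1%), 5 in each direction, had a p under 0.05. Ddx6, the helicase that works with the Lsm ring and Lsm14a, was higher at 40 days by 0.43 and lower at 80 days by -0.29, with a difference between the ages of -0.71. Skiv2l, a helicase of the cytoplasmic exosome, was higher at 80 days by 0.35 and Exosc9, of its core, lower by -0.24.

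Kinases and phosphatases of SR proteins had 2 of 21 probes with p under 0.05 at 40 days and 1 at 80 days. Clk4 was lower at both ages, by different probes (-0.18 and -0.25), and Srpk2 was higher at 40 days by 0.23. In the list of the exon junction complex and mRNA export 2 of 29 probes were called at each age, all lower. Thoc2 was among them at -0.16 and, by another probe, at -0.15. Neural and muscle splicing regulators had 4 of 61 probes called at 40 days, all higher, and 3 of 63 at 80 days, all lower. Those of 40 days included Brunol4 (0.20), Brunol6 (0.24) and Rbm9 (0.19), now Celf4, Celf6 and Rbfox2. The medians of these lists lay between -0.04 and 0.04 at both ages.

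Markers of cell types moved with genotype as well. At 40 days 3 of 12 astrocyte probes and 3 of 13 oligodendrocyte probes were higher in SOD1G93A mice at p under 0.05, Gfap among them at 0.24, and all of both lists lay above 0. The score of the astrocyte list, its median deviation from the mean of all arrays, ranged from -0.17 to 0.09 in wild-type and from 0.02 to 0.20 in SOD1G93A mice at 40 days, and from -0.14 to 0.16 and -0.16 to 0.18 at 80 days. For oligodendrocytes it was -0.23 to 0.17 and 0.07 to 0.29 at 40 days, and -0.19 to 0.00 and -0.11 to -0.05 at 80 days. Neuronal markers had 1 of 20 probes called at 40 days, higher in SOD1G93A mice. Their score ranged from -0.16 to -0.01 in wild-type and from 0.02 to 0.07 in SOD1G93A mice at that age. At 80 days it was -0.04 to 0.18 and -0.12 to 0.11. Motor neuron markers had 0 of 5 probes with p under 0.05 from limma at either age, and microglial markers 1 of 11 and 0 of 11. Markers of meninges, which can come with the cord, spread widely at 40 days, from -1.13 to 1.00 in wild-type and from -1.02 to 0.31 in SOD1G93A mice, with 0 of 6 probes called. Those of skeletal muscle ranged from -0.72 to 0.25 and from -0.65 to 2.61. Sensory neuron markers were too dim to test. Their part in the member changes was not tested.

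Of the 169 member probes, 16 were too dim to be tested in any comparison, and with them all probes of Srrm1, Hnrpul2 and Sf3a2. Ratios of dim probes are drawn toward that of the offset, which makes their changes look smaller.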

How the data were processed

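Groups follow the labelled genotype and age. The authors extracted spots with Agilent Feature Extraction (version 9.5.3.1 per the labels), and the deposited spot files hold linear intensity values of both dyes, not normalized. The deposited series matrix holds log2 values, normalized by the authors, that follow the Cy3 channel.

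With limma 3.58.1 (R 4.3.3, data.table version 1.17.8, statmod 1.5.0), the log2 ratio of Cy3 over Cy5 was taken from median signals. Where a spot lay over 20 units below its local background, that background was set to the median of the array, which brought the slopes of single arrays against the others of their age from 0.769-1.1 to 0.951-1.03. Background correction was by normexp (offset 50). Arrays were then normalized within by loess and between by Aquantile. Control spots and 107 to 301 outlier spots per array were left out, and spots of a probe averaged. Testing required Cy3 signals well above background on 3 or more of a group's 4 arrays, and values on 2 or more arrays of each group. Genotypes were tested with lmFit and eBayes on the 8 arrays per age, and ages and the interaction on all 16. P-values are two-sided and unadjusted where not called adjusted. That of limma sets a difference against the spread between these samples, moderated over all probes tested. Exact permutation tests used 70 splits of 4 arrays against 4, or 4900 relabellings within both ages. The scripts were tested on simulated data. The Sfrs6 probe A_52_P543824 was fitted at 80 days without SOD1G93A replicate 4, where it has no value.

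The precision of all values is limited by the number of arrays. Members were matched to current symbols with the RefSeq genes of GRCm38.p6, with 121 by accession and 47 by symbol or synonym, with 1 unmatched. Positions are those of the array files (NCBI35), and probe sequences come from the same files. The members, the lists and the rules for named genes (every member probe with p under 0.05 or groups that do not overlap at an age, the 8 of smallest p in each further comparison, the 4 highest and 4 lowest genes by level, and Lsm6, Lsm5 and Lsm1) were chosen with earlier results of these data known. Alternatives to background, signal, normalization, filter, weights and replicate block, and leaving out each array, are given in the closing section. Figures were drawn with matplotlib 3.10.9 (Python 3.11.15, pandas 2.3.3).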

Additional observations from a re-analysis of the deposited data

Results flagged for a closer look

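The genotype change of 14 member probes differed between the ages at p under 0.05 from limma, before adjustment and with 0 after it. The 8 of smallest p, chosen by that same p, are given here. The difference, 80 minus 40 days, was -0.61 for Ppih (A_51_P300759), -0.35 for Sfrs12 (A_52_P684857), -0.29 for Prpf4b (A_52_P643359), 0.43 for Sfrs5 (A_52_P50090), 0.29 for Lsm14a (A_51_P320860), -0.36 for Sfrs11 (A_51_P149818), -0.21 for Prpf38b (A_52_P455691) and -0.24 for Hnrpr (A_52_P451268). Leaving out each of the 16 arrays in turn ended the call for Prpf38b without SOD1G93A 40 days replicate 3 (-0.19), wild-type 80 days replicate 3 (-0.16) or SOD1G93A 80 days replicate 1 (-0.17), and for Hnrpr without any of 5 arrays (-0.23 to -0.18), while the other 6 kept theirs. Other processing ended more of them. Without loess the calls of Sfrs12, Prpf4b, Sfrs11, Prpf38b and Hnrpr were lost. By the Cy3 channel and in the series matrix those of Sfrs5, Sfrs11 and Prpf38b were lost. Ppih and Lsm14a kept theirs in all 30 alternatives.

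By Dixon's measure, the gap from an array to the nearest other divided by the range of its group, single samples stood far from the other 3 in 5 of 135 groups of named probes, where chance gives about 1 in 20. The wild-type arrays of Sfrs2 and Snrpa that stood apart at 40 days did not reach its critical value, since the other 3 arrays also spread. Sf3b1 (A_52_P625808) was at 0.75 in wild-type 40 days replicate 2 and from 0.27 to 0.31 in the others. In wild-type 80 days replicate 1, Sfrs2 (A_52_P482355) was at -0.90 and from -0.77 to -0.75 in the others, and Snrpa (A_52_P296281) was at 0.31 and from 0.12 to 0.15 in the others. In SOD1G93A 40 days replicate 4, Lsm8 (A_51_P306658) was at -0.91 and from -0.86 to -0.85 in the others, and Snrpg (A_51_P200134) was at -1.22 and from -1.39 to -1.37 in the others.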

How the results depend on the processing

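Of the named probes, 52 results were recomputed under 1363 alternatives in all, of which 1133 kept the direction and the side of the threshold, 203 lost the call, 24 gained one and 3 turned. These were the difference between ages of Hnrpr (A_52_P451268) without loess (0.028), the 80 days change of Snrpn (A_51_P168862) with scale normalization (-0.026) and the age change of Prpf4b (A_52_P643359) in wild-type mice in the series matrix (-0.0049). The count of members with p under 0.05 from limma, 8 at 40 days, was 3 with bright backgrounds kept, 22 with scale normalization, 4 by the Cy3 channel, 4 in the series matrix and from 4 to 13 without 1 array. At 80 days, 16 became 9 without loess, 6 of them higher, and from 9 to 20 without 1 array. For the difference between ages, 14 became 9 by the Cy3 channel and 9 in the series matrix, 10 to 15 without 1 array, and the split of 5 higher and 9 lower turned to 15 and 1 without loess. For the ages in wild-type mice, 20 became 12 with backgrounds kept, with processed signals and by the Cy3 channel, 35 with scale normalization and in the series matrix (3 higher, 32 lower), and 10 to 22 without 1 array. In SOD1G93A mice 34 became 19 by the Cy3 channel, 49 in the series matrix and 20 to 37 without 1 array. After Benjamini-Hochberg adjustment by limma the counts were 0, 0, 0, 0 and 2. The members' median change at 40 days, -0.01, was 0.083 with processed signals, -0.067 without loess, -0.04 with scale normalization and -0.02 to 0.00 without 1 array, and that at 80 days, -0.02, was 0.032 without loess and -0.03 to 0.00 without 1 array. The median of all probes moved by over 0.1 with processed signals (0.12 at 40 days, -0.11 for the difference between ages) and in the series matrix (-0.13 and -0.14 for the ages in wild-type and SOD1G93A mice). The Lsm6 measure of upstream against downstream probes, with alternatives chosen after seeing the data, was -0.34 at 40 days with bright backgrounds kept (exact permutation p = 0.0571), and -0.35 by the Cy3 channel (exact permutation p = 0.0571) and -0.33 in the series matrix (exact permutation p = 0.0857) at 80 days. The causes were not tested.

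Same-numbered arrays share a slide. The correlation of their deviations from the group means ranged from -0.07 to 0.20 between genotypes of an age, from -0.04 to 0.02 between the ages of wild-type mice and from 0.09 to 0.23 between those of SOD1G93A mice. With the slide, which is the replicate number, as a block (replicate block) the members called were 5 at 40 days, 18 at 80 days, 14 for the difference between ages, 15 in wild-type and 26 in SOD1G93A mice.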
